A study of Rattus norvegicus with 24 samples.

Results

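The insulin-like growth factor (IGF) system was described in the rat thyroid through 10 genes: the ligands Igf1 and Igf2, the receptors Igf1r and Igf2r, and the binding proteins Igfbp2 to Igfbp7. They were found by gene symbol, as every probe set (a group of short probes for 1 transcript) that carried only that symbol. This gave 23 probe sets of the 31042 that were not array controls, and 10 of the 14217 genes named by a single symbol. Each gene is represented by its brightest probe set over all arrays, and the other sets are given where they add to it or differ.

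Total RNA from thyroids of adult male Sprague-Dawley rats had been hybridised to 24 Affymetrix arrays, in 8 groups of 3. At each of 2 times the groups were an iodine-deficient diet with perchlorate in the water, perchlorate water on normal diet, the deficient diet with normal water, and a control on normal diet and normal water. Housing and feeding lasted 2 months plus 1 or 14 days, and perchlorate was given as 95 mg of the potassium salt per liter of drinking water. The 2 times are read here as 1 and 14 days of perchlorate. The study asked how iodine deficiency and perchlorate each change gene expression in the gland. The labels name neither separate animals nor pools behind the samples, so each p-value reflects sample-to-sample spread alone, and part of that may be technical.

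IGF1 and IGF2 are secreted growth factors that act through the tyrosine kinase receptor IGF1R. In thyroid follicular cells, IGF1 or insulin acts together with thyrotropin (TSH), the pituitary hormone that drives thyroid growth and hormone synthesis. Perchlorate blocks iodide uptake by the sodium-iodide symporter, and both lack of iodine and perchlorate are known to lower thyroid hormone output and raise TSH. The binding proteins hold IGFs in the circulation and in tissue, and can limit or prolong their action.

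The calls on the brightest probe sets all fell among the binding proteins, and nearly all at day 14 on the deficient diet with perchlorate. Against the control of day 14, Igfbp3, Igfbp2 and Igfbp7 rose and Igfbp5 fell, while Igf1, Igf2, Igf1r, Igf2r, Igfbp4 and Igfbp6 did not pass the test on their brightest probe sets. Igfbp3 was 4.95-fold, Igfbp2 2.88-fold and Igfbp7 1.64-fold higher, and Igfbp5 was 2.02-fold lower. Igfbp7 also rose with perchlorate alone at day 14, and no member passed the test at day 1 in any treated group.

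Values are log2(intensity + 16) after quantile normalization between arrays. Fold changes are on that scale, on which changes of dim probe sets come out too small. Adjusted p-values are limma's, from 1 fit over all 24 arrays, corrected by Benjamini-Hochberg across 18625 tested probe sets, and those under 0.05 count as calls. SE is the standard error of a log2 fold change, and SD is over the 3 arrays of a group. All 10 brightest probe sets were among those tested, as were 19 of the 23 in all. The 4 left out as too dim were 3 sets of Igf2 and 1 of Igfbp5.

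On 2 arrays of day 1 the values lay apart from their groups. The median absolute deviation from the group was 0.692 for perchlorate replicate 18 and 0.277 for control replicate 22, against 0.121 to 0.201 for the other 22 arrays. Correlations between arrays of a group ran from 0.851 to 0.98, and no 2 arrays held identical values. The follicular cell marker Tg, the precursor of thyroid hormone, ranked at the 99.9th percentile of mean signal. Calca, the calcitonin gene of thyroid C cells, ranked at 99.7. Pth, the hormone of the neighbouring parathyroid, ranked at 99.9, so transcripts of that gland were present. Marker genes of lymphocytes and of skeletal muscle varied widely within some groups. Their summed intensity was 144 to 5017 for lymphocytes with perchlorate at day 1. For skeletal muscle it was 6869 to 28121 on the diet with perchlorate at day 1. Their part in the results was not tested.

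The sequences around the start sites of the 4 binding protein genes called at day 14 are shown because these genes moved in the same samples, 3 upward and 1 downward. Each runs from 250 bases before to 50 bases after the gene's start, 5′ to 3′ on the gene's own strand, from RefSeq on the rat build GRCr8, and capitals mark the GC box GGGCGG or its reverse complement. Igfbp2 lies at chr9:81864561-81864860 on the plus strand, Igfbp7 at chr14:31091486-31091785 on the plus strand, Igfbp3 at chr14:86277895-86278194 on the minus strand and Igfbp5 at chr9:81914138-81914437 on the minus strand.
Igfbp2: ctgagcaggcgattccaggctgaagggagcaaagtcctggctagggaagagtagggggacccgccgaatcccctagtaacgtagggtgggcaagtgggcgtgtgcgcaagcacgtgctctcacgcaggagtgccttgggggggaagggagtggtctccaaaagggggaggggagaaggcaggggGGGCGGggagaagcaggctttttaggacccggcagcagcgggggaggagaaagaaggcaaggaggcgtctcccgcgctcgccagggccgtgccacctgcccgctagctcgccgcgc
Igfbp7: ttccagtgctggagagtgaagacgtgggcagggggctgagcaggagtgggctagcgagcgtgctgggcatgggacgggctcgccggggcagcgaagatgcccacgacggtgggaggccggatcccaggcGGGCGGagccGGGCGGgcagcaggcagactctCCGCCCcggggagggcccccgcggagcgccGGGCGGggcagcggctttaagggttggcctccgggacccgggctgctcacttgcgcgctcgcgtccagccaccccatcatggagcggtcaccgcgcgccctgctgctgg
Igfbp3: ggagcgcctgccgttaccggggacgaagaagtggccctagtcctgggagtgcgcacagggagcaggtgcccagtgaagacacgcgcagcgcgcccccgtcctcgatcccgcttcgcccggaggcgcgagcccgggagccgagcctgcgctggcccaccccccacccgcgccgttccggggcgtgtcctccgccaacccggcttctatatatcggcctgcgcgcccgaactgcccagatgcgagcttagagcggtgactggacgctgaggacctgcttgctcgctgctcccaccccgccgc
Igfbp5: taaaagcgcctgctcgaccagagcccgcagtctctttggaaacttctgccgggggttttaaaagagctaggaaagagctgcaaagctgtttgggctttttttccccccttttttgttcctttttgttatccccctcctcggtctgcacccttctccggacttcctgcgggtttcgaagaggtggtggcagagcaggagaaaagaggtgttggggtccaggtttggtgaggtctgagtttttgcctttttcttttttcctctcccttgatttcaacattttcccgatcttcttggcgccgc

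The GC box occurred once in the Igfbp2 window and 4 times in that of Igfbp7, and these letters were in neither the Igfbp3 nor the Igfbp5 window. It was present in 6 of the 11 windows of the 10 genes, Igf2 having 2, and in 33.1% of the 33469 RefSeq windows of the same length. The TATA box TATAAA was in 1 of the 11 windows, that of Igfbp4, and in 14.2% of all. The letters TGACG, the core of a cyclic AMP response element, were in 1 of the 11, that of Igf2r, and in 21.2% of all. Both strands were searched, and a match is a description of the letters only. Igfbp2 and Igfbp5 are next to each other among the protein-coding genes of chromosome 9, and moved in opposite directions.

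**Figure D1:**
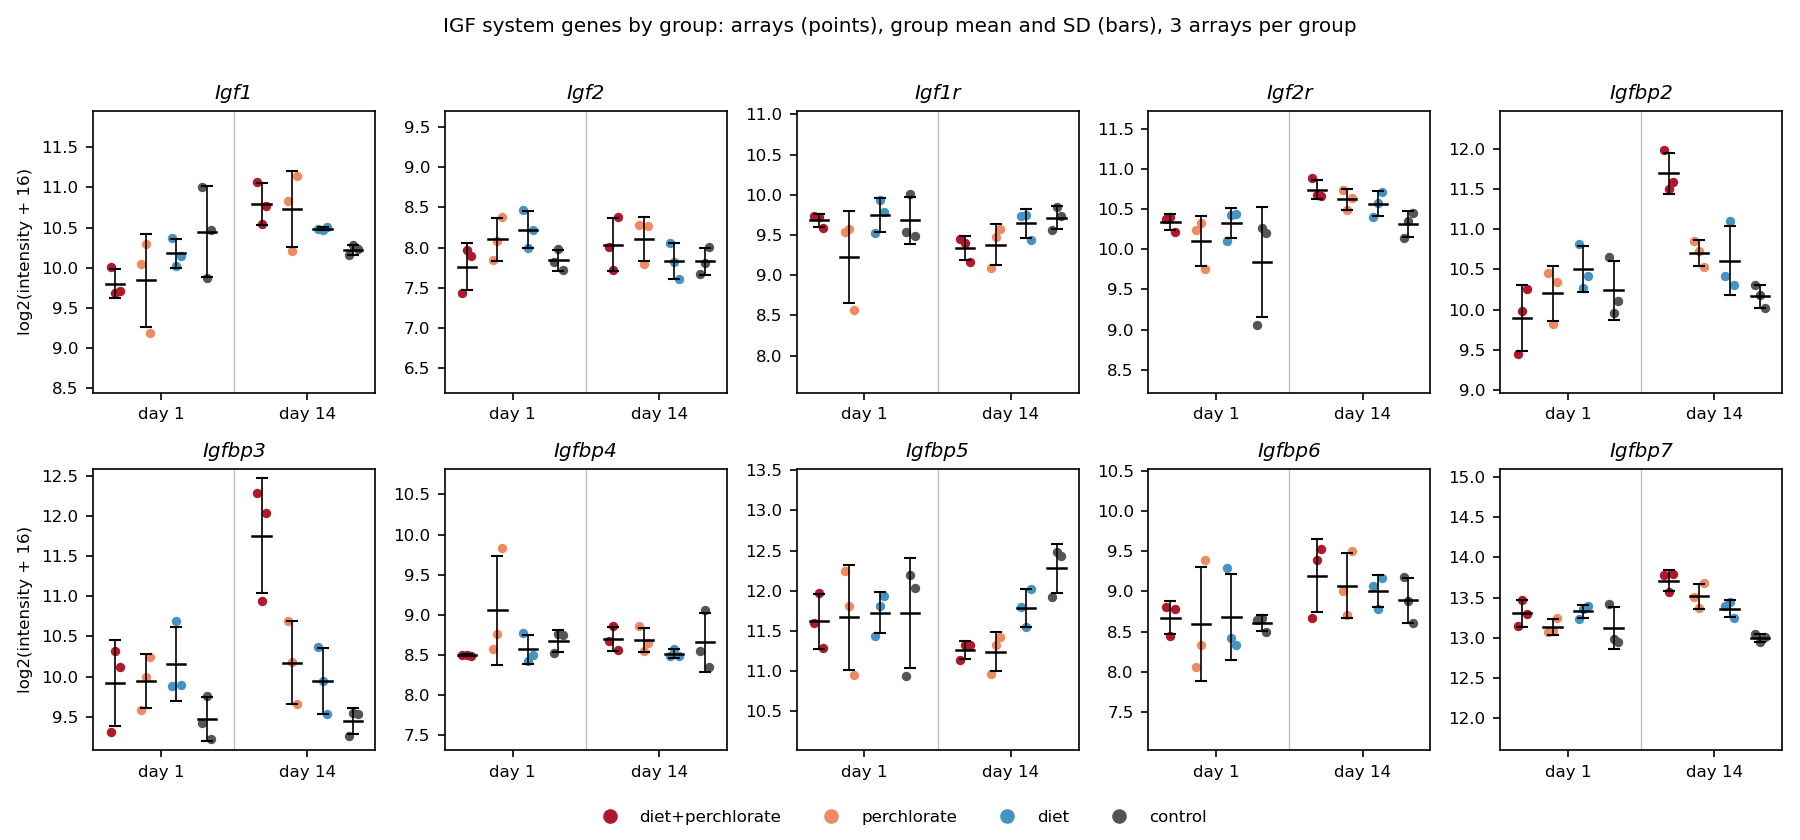
Levels of the 10 IGF system genes, as log2(intensity + 16) of the brightest probe set, in each of 24 arrays by day and group; bars are the group mean and SD (n = 3 arrays). At day 14 the 3 arrays of the diet with perchlorate lie above every control array for Igfbp2, Igfbp3 and Igfbp7, and below every control array for Igfbp5.

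Igf1, the ligand that acts with TSH on follicular cells, was 11.06, 10.54 and 10.77 at day 14 on the diet with perchlorate, 10.84, 10.21 and 11.14 with perchlorate, and 10.49, 10.47 and 10.51 on the diet, against 10.16, 10.28 and 10.23 in controls. The arrays of the diet, with or without perchlorate, lay above every control array, and 1 perchlorate array lay within the controls. The log2 fold change on the diet with perchlorate was 0.57 (SE 0.27, 95% interval 0.01 to 1.13, adjusted p 0.223) and that of perchlorate 0.51 (SE 0.27, adjusted p 0.423), so neither passed. The other 2 probe sets of Igf1 gave 0.29 and 0.48 on the diet with perchlorate, with adjusted p-values of 0.666 and 0.392.

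At day 1 Igf1 averaged 9.80 ± 0.18 on the diet with perchlorate, 9.84 ± 0.58 with perchlorate and 10.18 ± 0.18 on the diet, against 10.45 ± 0.57 in controls (SD, n = 3 each). The control arrays spread from 9.87 to 11.01, the highest being replicate 22, and overlapped all 3 treated groups. For Igf1 the day 14 effect of perchlorate less its day 1 effect was 1.12 on the log2 scale (adjusted p 0.209), and was not called. Without control replicate 22, Igf1 at day 1 gave -0.37 on the diet with perchlorate, -0.33 with perchlorate and 0.01 on the diet, against -0.65, -0.61 and -0.27 with it, and the difference between days was 0.84 (adjusted p 0.362). Without both arrays that stood apart, perchlorate at day 1 gave 0.00 and the difference between days 0.51 (adjusted p 0.523).

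Igf2, a growth factor best known from fetal life, varied little. Its group means ran from 7.76 ± 0.29 on the diet with perchlorate at day 1 to 8.23 ± 0.23 on the diet at day 1 (SD, n = 3 each), and the day 14 change on the diet with perchlorate was 0.21 (SE 0.21, adjusted p 0.642). The 95% interval of that change was -0.23 to 0.64.

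Igf1r, the signalling receptor for both ligands, was 9.45, 9.40 and 9.17 at day 14 on the diet with perchlorate and 9.09, 9.47 and 9.58 with perchlorate, against 9.56, 9.84 and 9.73 in controls. The arrays of the combined treatment lay below every control array, those of perchlorate did not. The log2 fold changes were -0.38 (SE 0.22, adjusted p 0.343) and -0.33 (SE 0.22, adjusted p 0.582). A second, dimmer probe set gave -0.36 and -0.38 (adjusted p 0.234 and 0.307), so all 4 estimates were below 0 and none passed.

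Igf2r, the mannose 6-phosphate receptor that clears IGF2 from the cell surface, gave a call on 1 of its 2 probe sets. The brighter set was 10.88, 10.68 and 10.66 on the diet with perchlorate at day 14, against 10.14, 10.35 and 10.45 in controls, a change of 0.43 (SE 0.23, adjusted p 0.292). The second set was 10.14, 9.86 and 10.06 against 9.16, 9.25 and 9.56, and its change of 0.70 (SE 0.18, adjusted p 0.0195) passed. On both sets the 3 arrays of the combined treatment lay above every control array. The second set also passed for the diet over the mean of both days, at 0.55 (adjusted p 0.0454), where the brighter set did not.

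Igfbp3, the main carrier of IGFs in serum and a protein that many cells secrete, had the highest rise of the 10. At day 14 it was 12.28, 10.94 and 12.04 on the diet with perchlorate, 10.69, 10.18 and 9.65 with perchlorate, and 10.36, 9.95 and 9.54 on the diet, against 9.26, 9.54 and 9.53 in controls. The lowest array of the combined treatment lay above the highest of any other group of that day. The rise was 2.31 (SE 0.34, 95% interval 1.61 to 3.01, adjusted p 0.000194). The second Igfbp3 probe set rose by 2.13 (SE 0.37, adjusted p 0.000955).

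Perchlorate alone gave 0.73 for Igfbp3 (SE 0.34, adjusted p 0.319) and the diet alone 0.50 (SE 0.34, adjusted p 0.738). When perchlorate on the diet was set against the diet itself, Igfbp3 was higher by 1.81 (SE 0.34, adjusted p 0.0257). Set against perchlorate alone, the diet with perchlorate differed by 1.58 (SE 0.34, adjusted p 0.558), with no overlap of arrays. The interaction at day 14, which asks whether the joint log2 effect exceeds the sum of the single ones, was 1.08 (SE 0.48, unadjusted p 0.0346, adjusted p 0.9997) and was not called. The call against the diet alone was lost without any 1 of 5 arrays, diet with perchlorate replicates 27 or 30 or diet replicates 32, 33 or 34, with log2 fold changes of 1.54 to 2.01 and adjusted p-values of 0.0638 to 0.223.

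Igfbp2, a binding protein of fetal and many adult tissues, followed. It was 11.99, 11.50 and 11.59 at day 14 on the diet with perchlorate, 10.85, 10.73 and 10.53 with perchlorate, and 10.42, 11.10 and 10.30 on the diet, against 10.30, 10.18 and 10.02 in controls. The 3 arrays of the combined treatment were above the arrays of the other 3 groups, and 1 diet array reached 11.10. The rise was 1.53 (SE 0.24, 95% interval 1.02 to 2.03, adjusted p 0.000429).

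For perchlorate alone Igfbp2 gave 0.53 (SE 0.24, adjusted p 0.304) and for the diet 0.44 (SE 0.24, adjusted p 0.618). Perchlorate added to the diet gave 1.08 (SE 0.24, adjusted p 0.0667), and the diet added to perchlorate 0.99 (SE 0.24, adjusted p 0.840). None of these 4 passed. Perchlorate added to the diet did pass without diet replicate 33 (1.33, adjusted p 0.0344).

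Igfbp7, a secreted protein with low affinity for IGFs that is deposited around blood vessels, had the smallest spread of the 10, with a pooled SD of 0.14 within groups. At day 14 it was 13.78, 13.56 and 13.79 on the diet with perchlorate, 13.50, 13.37 and 13.68 with perchlorate, and 13.40, 13.44 and 13.25 on the diet, against 13.05, 12.95 and 13.00 in controls. All 9 treated arrays lay above the controls. It rose by 0.71 on the diet with perchlorate (SE 0.12, adjusted p 0.000717) and by 0.52 with perchlorate (SE 0.12, adjusted p 0.0161), and the diet alone gave 0.36 (SE 0.12, adjusted p 0.243). The perchlorate call was lost with values as deposited (adjusted p 0.0675), with arrays scaled to a common median (0.42, adjusted p 0.303), or without perchlorate replicates 39 or 42 or control replicates 44 or 47 (adjusted p 0.0522 to 0.119).

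Igfbp5, which binds to extracellular matrix and holds IGFs there, was the member that fell against the controls of day 14. It was 11.13, 11.32 and 11.33 at day 14 on the diet with perchlorate, 10.96, 11.33 and 11.43 with perchlorate, and 11.80, 11.54 and 12.02 on the diet, against 11.92, 12.48 and 12.43 in controls. The arrays given perchlorate, with or without the diet, lay below every control array and below every diet array. The change on the diet with perchlorate was -1.02 (SE 0.30, adjusted p 0.0350), and that of perchlorate -1.04 (SE 0.30, adjusted p 0.0567), which missed the threshold but passed with arrays scaled to a common median (adjusted p 0.0223) and without the 2 day 1 arrays that stood apart (adjusted p 0.00269). The diet alone gave -0.49 (SE 0.30, adjusted p 0.689). Over all 24 arrays this probe set averaged 11.66, below every control array of day 14. On the diet with perchlorate, no fall of Igfbp5 was called at day 14 against day 1.

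The other 3 tested probe sets of Igfbp5 gave -1.26 (adjusted p 0.0211), -1.04 (0.175) and -0.94 (0.205) on the diet with perchlorate. The set that passed there also passed for perchlorate, at -1.31 (SE 0.34, adjusted p 0.0324). Thus the sets shared the direction and 2 of the 4 passed for the combined treatment. The call on the brightest set was lost with no filter on dim sets (adjusted p 0.0551) and without diet with perchlorate replicates 27, 29 or 30 or control replicates 44 or 47 (log2 fold changes of -1.05 to -0.92, adjusted p 0.0703 to 0.131).

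**Figure D2:**
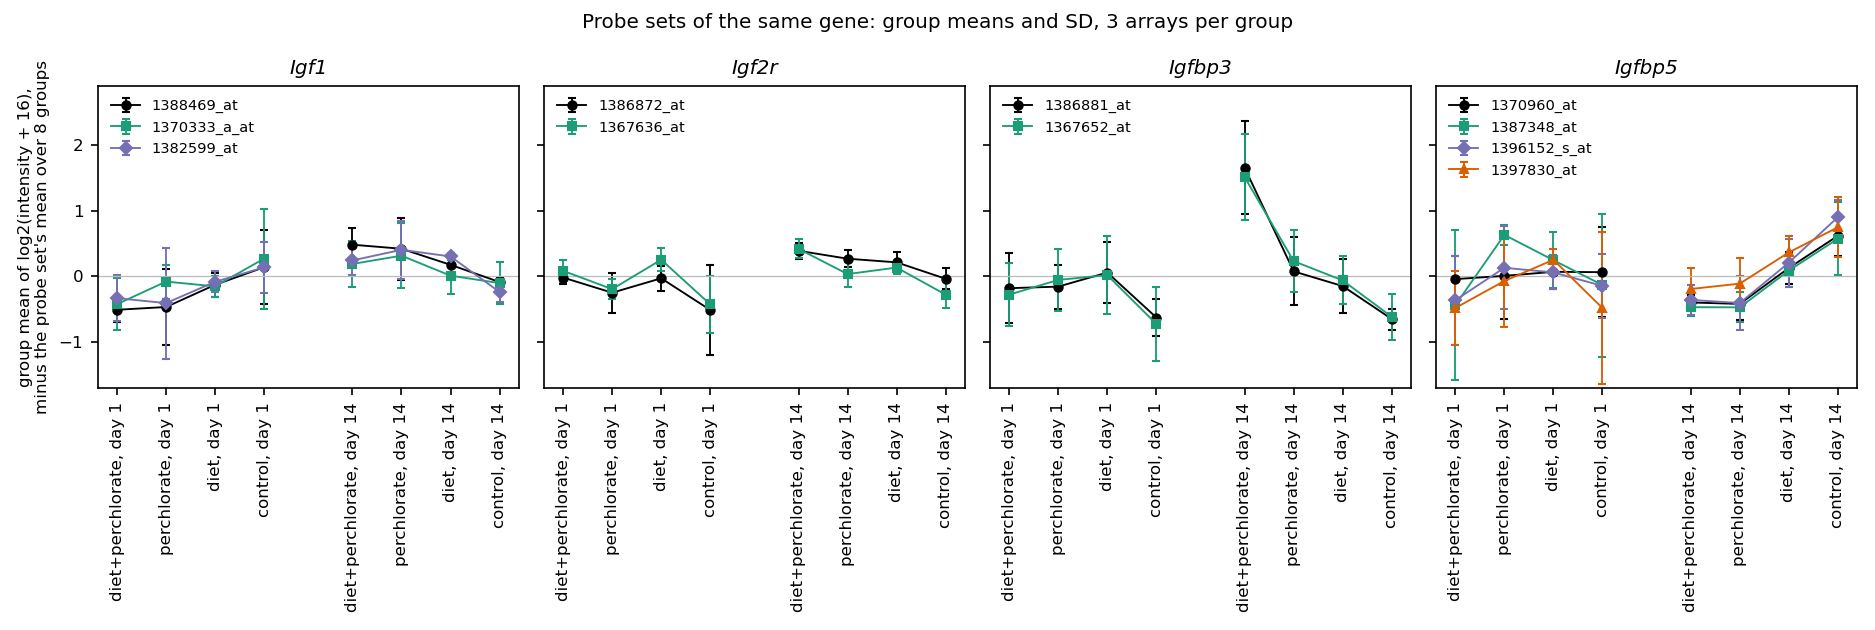
Group means of log2(intensity + 16) for each tested probe set of Igf1, Igf2r, Igfbp3 and Igfbp5, less that set's mean over the 8 groups, with SD (n = 3 arrays). The 2 Igfbp3 sets peak together on the diet with perchlorate at day 14, and the 4 Igfbp5 sets are highest in the day 14 controls or, for 1 set, at day 1 with perchlorate.

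Igfbp4, an inhibitor of IGF action that is cut by pregnancy-associated plasma protein A, gave 0.04 on the diet with perchlorate at day 14 (SE 0.23, 95% interval -0.45 to 0.53, adjusted p 0.952). Igfbp6, which prefers IGF2, gave 0.31 (SE 0.31, 95% interval -0.33 to 0.95, adjusted p 0.638). Its second, dimmer set gave 0.44 (SE 0.50, 95% interval -0.61 to 1.49, adjusted p 0.697), and spread more widely, with 7.51 ± 0.32 on the diet with perchlorate, against 7.07 ± 0.85 in controls (SD, n = 3 each). On the combined treatment that set averaged 7.51 ± 0.32 at day 14, against 6.21 ± 0.24 at day 1 (SD, n = 3 each), with no overlap but not called (adjusted p 0.192). These intervals leave out changes as large as that of Igfbp3. The highest Igfbp4 value, 9.84, was on perchlorate replicate 18 of day 1, which stood apart, while the other 23 arrays ran from 8.35 to 9.06.

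**Figure D3:**
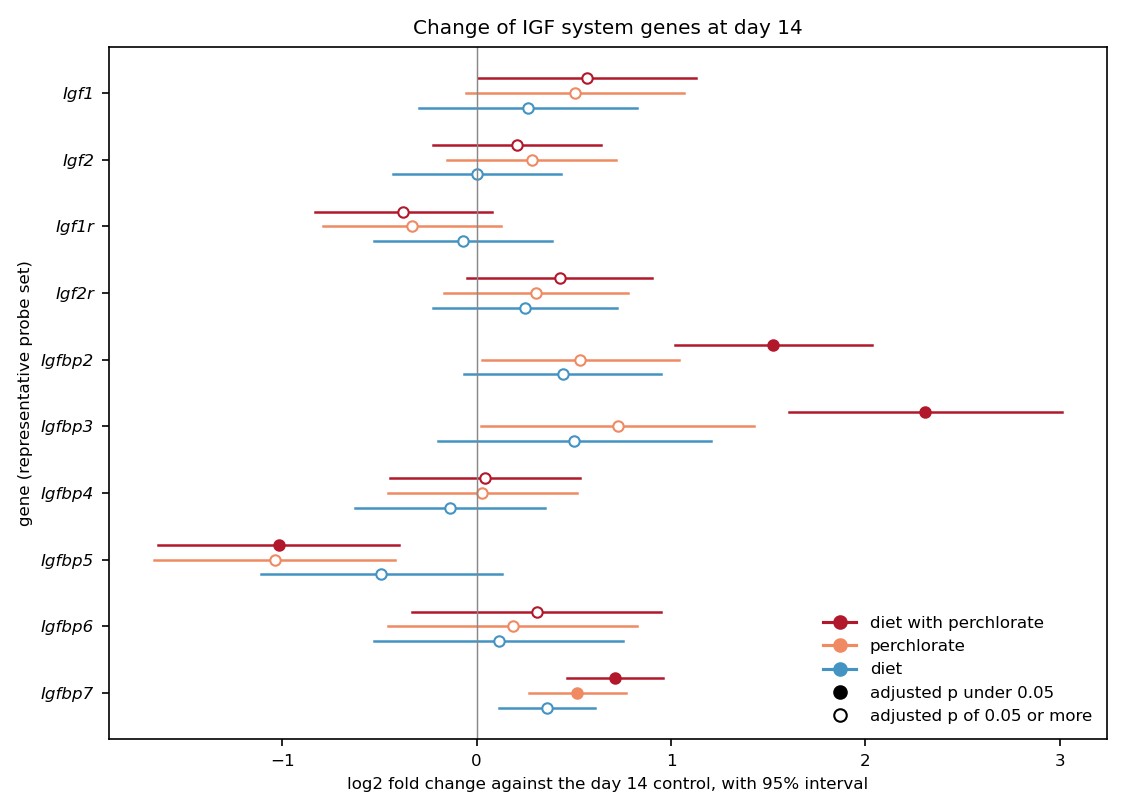
Log2 fold change of each gene's brightest probe set against the day 14 control, with the 95% interval, for the diet with perchlorate, perchlorate and the diet (3 arrays per group); filled points have an adjusted p under 0.05. Filled points are Igfbp2, Igfbp3, Igfbp5 and Igfbp7 on the diet with perchlorate, and Igfbp7 with perchlorate.

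Counted together, 3 of the 10 members rose and 1 fell on the diet with perchlorate at day 14, where 8.85% of all probe sets tested were called. Counted by gene on the brightest set, as the members are, 1142 of 10643 genes were called there. The like count was 462 with perchlorate, 31 on the diet and 26 for perchlorate added to the diet, all at day 14. The members' median log2 fold change on the diet with perchlorate at day 14 was 0.37, and that of the 10643 genes tested was -0.06. In 7 of the 10 the arrays of the 2 groups did not overlap there, as in 40.7% of genes. With perchlorate alone 1 of 10 was called, at a background of 3.57%, and 5 did not overlap, at 28.9% of genes. On the diet alone none of 10 was called (limma, background 0.22%) and 3 did not overlap, at 24.2% of genes, while Igfbp7 was the only member with an unadjusted p under 0.05. These 3 comparisons share their control arrays. For perchlorate added to the diet, 1 of 10 was called at a background of 0.209%, and 5 did not overlap, at 27% of genes.

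At day 1 no member was called. The background was 0.601% on the diet with perchlorate, 0% with perchlorate, where 1888 probe sets had an unadjusted p under 0.05, and 0.0537% on the diet. It was 0.00537% for perchlorate added to the diet and 3.66% for the diet added to perchlorate, a comparison that holds perchlorate replicate 18. In the last comparison Igfbp4 gave -0.56 (adjusted p 0.161), and -0.80 without perchlorate replicate 15 (adjusted p 0.0338). Igfbp3 averaged 9.92 ± 0.54 on the diet with perchlorate, 9.94 ± 0.34 with perchlorate and 10.16 ± 0.46 on the diet, against 9.47 ± 0.27 in controls (SD, n = 3 each). Its change on the diet at day 1 was 0.69 (SE 0.34, adjusted p 0.850), with no overlap between diet and control arrays. Over the mean of both days on the diet no member was called on its brightest set, at a background of 1.03%. Igfbp7 there gave 0.29 (adjusted p 0.119), which passed without control replicate 22 (0.36, adjusted p 0.0299).

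Between days, 2 binding proteins differed on the combined treatment, in a comparison without the controls. On the diet with perchlorate, Igfbp2 averaged 11.69 ± 0.26 at day 14, against 9.89 ± 0.41 at day 1, a rise of 1.80 (SE 0.24, adjusted p 0.00122). Igfbp3 averaged 11.75 ± 0.71, against 9.92 ± 0.54, a rise of 1.84 (SE 0.34, adjusted p 0.00869). These were 2 of 10 members, at a background of 1.83%, in a comparison added after the data were seen. The Igfbp3 call was lost without diet with perchlorate replicate 2 of day 1 (1.53, adjusted p 0.0945) or replicates 27 or 30 of day 14 (1.57 and 1.69, adjusted p 0.0858 and 0.0502).

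Perchlorate at day 14 against day 1 called none of 10, at a background of 5.17%, with Igf1 closest to the threshold (0.89, adjusted p 0.0585). Igf1 passed there without perchlorate replicates 15 or 16 of day 1 or replicate 40 of day 14 (0.99 to 1.15, adjusted p 0.0211 to 0.0325), and without control replicate 22 of day 1 (0.89, adjusted p 0.0372). The diet at day 14 against day 1 called none at a background of 0.00537%, and the control did so at 0%. The differences between effects likewise called no member. For the effect of day 14 less that of day 1, the background was 0.553% for perchlorate, 0% for the diet and 0% for both together. In the last, Igfbp2 gave 1.87 (SE 0.34, adjusted p 0.0629), which passed without diet with perchlorate replicate 3 of day 1 (adjusted p 0.0198) or replicate 29 of day 14 (adjusted p 0.0453). It was 0.0107% for the interaction at day 1 and 0.0161% for that at day 14. The diet added to perchlorate, and the diet set against perchlorate, each called none of 10 at day 14, at a background of 0.00537%.

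A list of 62 other genes covered IGF binding and signalling, the TSH side, and RNA binding and locus partners such as H19. Of these, 51 had a probe set with a single symbol and 43 were tested. On the diet with perchlorate at day 14, 3 of the 43 rose and 1 fell, a share near the background of 8.85%, and the median log2 fold change was 0.03. Htra1, a secreted protease that can cut IGF binding proteins, averaged 12.11 ± 0.17 on the diet with perchlorate, against 10.07 ± 0.05 in controls (SD, n = 3 each), a rise of 2.04 (adjusted p 0.000114). Grb10, an adaptor that dampens signalling from the insulin and IGF1 receptors, averaged 9.32 ± 0.26, against 7.86 ± 0.23, a rise of 1.46 (adjusted p 0.000232). Both also rose with perchlorate alone, by 1.94 (adjusted p 0.000475) and 1.28 (adjusted p 0.00186). On the diet alone, over the mean of both days, limma called both too, at 1.08 (adjusted p 0.0099) and 0.67 (adjusted p 0.0391).

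Adamts1, a matrix protease, rose by 1.09 on the diet with perchlorate (adjusted p 0.0378). Ghr, the growth hormone receptor through which circulating IGF1 is controlled in liver, fell by 1.10 on the log2 scale (adjusted p 0.0292). None of the 17 tested genes of the kinase branch downstream of the receptors (phosphatidylinositol 3-kinase, Akt and mTOR) was called, and none of the 3 tested of the mitogen branch. The TSH receptor Tshr gave 0.00 (SE 0.30, adjusted p 0.996). Igfbp1 was too dim to be tested, as were Irs1 and the suppressors Socs1, Socs2 and Socs3.

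Markers of vessels, connective tissue and macrophages were higher on the diet with perchlorate at day 14, where Igfbp3, Igfbp2 and Igfbp7 were, and with perchlorate alone. On the diet alone at day 14 the endothelial, pericyte and smooth muscle, and macrophage lists lay higher as well, but none of their markers was called. On the diet with perchlorate at day 14, where the background was 8.85%, 5 of 7 fibroblast markers, 4 of 6 endothelial, 5 of 6 pericyte and smooth muscle and 5 of 6 macrophage markers rose, and none of them was called lower. Their summed intensity was 31803 to 40171 against 17680 to 27964 in controls for fibroblasts, 17348 to 18809 against 6720 to 9873 for endothelium, 7589 to 8544 against 1990 to 2292 for pericytes and smooth muscle, and 2832 to 3995 against 1086 to 1384 for macrophages. Vwf, which marks endothelium, rose by 2.69 (adjusted p 0.000777) and Rgs5, which marks pericytes, by 2.34 (adjusted p 0.000409). Of the fibroblast markers, Pdgfra averaged 9.76 ± 0.30, against 10.14 ± 0.19 in controls, and Dcn 12.91 ± 0.04, against 12.85 ± 0.53 (SD, n = 3 each). All 25 of these markers passed the filter on dim sets, so none was at 0.

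With perchlorate alone the counts were 4 of 7 fibroblast, 3 of 6 endothelial, 4 of 6 pericyte and smooth muscle and 2 of 6 macrophage markers, all higher. The background there was 3.57%. Every list there overlapped its range on the diet with perchlorate, as at 13068 to 18556 for endothelium and 28620 to 41951 for fibroblasts. On the diet alone the endothelial, pericyte and smooth muscle, and macrophage lists lay above every control array of day 14, and the fibroblast list overlapped the controls. None of the 25 markers was called there (limma, lowest adjusted p 0.0723, for Cd163 and Mrc1), at a background of 0.22%. Of all genes tested, 24.2% did not overlap in that comparison. For perchlorate added to the diet none of the 25 was called, at a background of 0.209%. In that comparison 27% of genes did not overlap, and 3 of the lists lay higher without overlap. They summed on the diet with perchlorate to 17348 to 18809, against 11362 to 15050 on the diet, for endothelium, to 7589 to 8544, against 3497 to 4942, for pericytes and smooth muscle, and to 2832 to 3995, against 2138 to 2715, for macrophages. Vwf gave 1.51 there (SE 0.46, adjusted p 0.224). The fibroblast list overlapped, at 31803 to 40171 on the diet with perchlorate, against 24372 to 32689 on the diet. The part of these markers in the rise of Igfbp3, Igfbp2 and Igfbp7 was not tested. The adipocyte list lay lower, at 1686 to 2624 on the diet with perchlorate, against 2755 to 5027 in controls of day 14, with none of its 5 tested genes called. It overlapped the controls with perchlorate (1152 to 4952) and on the diet (2827 to 5304), and its part in the results was not tested either. In bulk tissue, more cells of a type and more RNA per cell cannot be told apart.

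**Figure D4:**
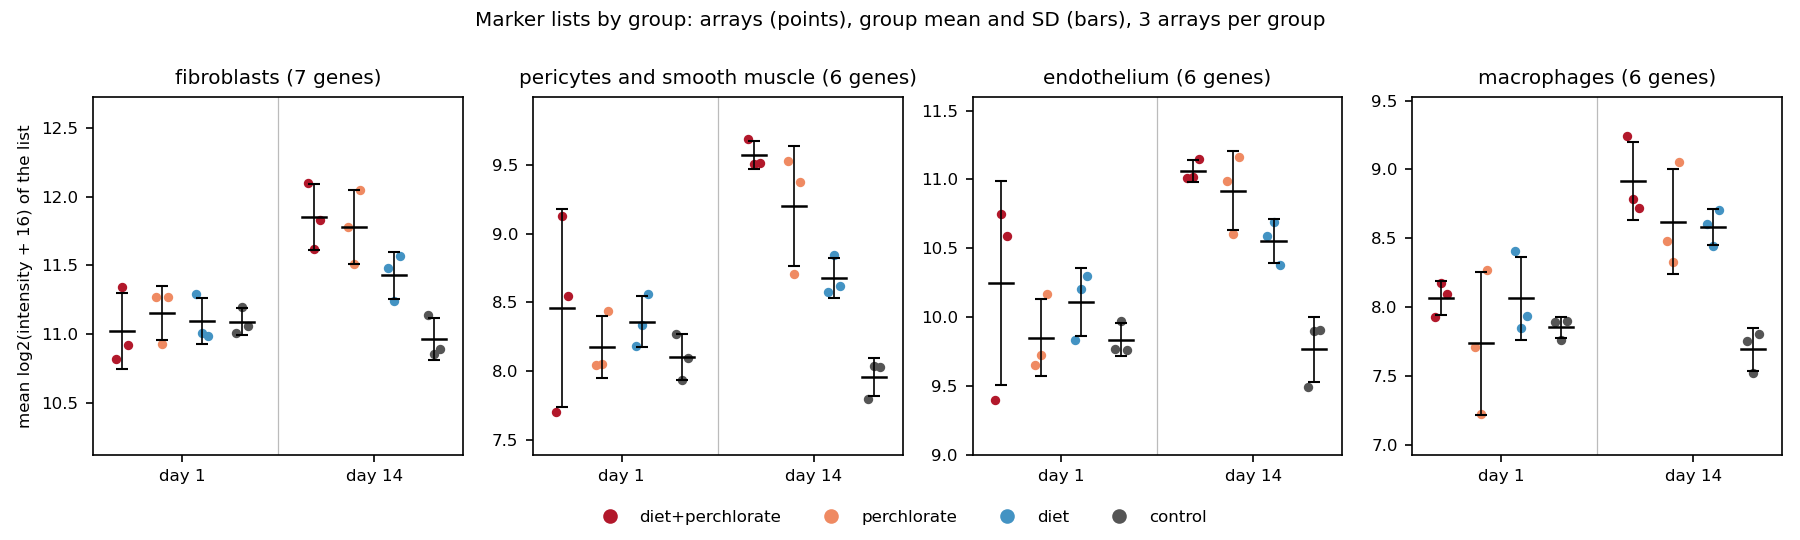
Mean log2(intensity + 16) of the fibroblast (7 genes), pericyte and smooth muscle (6), endothelial (6) and macrophage (6) marker lists in each of 24 arrays, with group mean and SD (n = 3 arrays). At day 14 the arrays of the diet with perchlorate lie above those of the control in every list.

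Markers of C cells, which lie within the thyroid, and of the neighbouring parathyroid were lower in the treated groups of day 14 than in the controls of that day. Those controls had the highest mean of the 8 groups on both lists. The controls of day 1 summed to 18997 to 29836 for C cells and 13054 to 20165 for the parathyroid. Both ranges overlapped every treated group of day 14. The C cell list summed to 15609 to 24915 on the diet with perchlorate, 15388 to 25808 with perchlorate and 21574 to 25937 on the diet, against 27501 to 32499 in controls. The parathyroid list summed to 12304 to 17880 on the diet with perchlorate, 15063 to 16677 with perchlorate and 15856 to 17531 on the diet, against 20764 to 21226 in controls. Both lists were lower in every treated array than in any control array of that day. Casr, the calcium sensor of the parathyroid, fell by 1.81 on the diet with perchlorate (adjusted p 0.00781) and by 1.56 with perchlorate (adjusted p 0.0396). In all, 1 of 4 tested C cell markers and 1 of 2 parathyroid markers fell on the diet with perchlorate, and their part in the fall of Igfbp5 was not tested. Of 7 follicular markers, Slc5a5, the sodium-iodide symporter, rose by 1.70 (adjusted p 1.122e-05) and Foxe1 fell by 0.51 (adjusted p 0.0224).

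Across the 24 arrays, which share groups and so are not independent points, the binding proteins that rose went together. Spearman's rho was 0.71 between Igfbp2 and Igfbp7, 0.70 between Igfbp3 and Igfbp7, and 0.50 between Igfbp2 and Igfbp3. With Igfbp5 it was -0.68 for Igfbp7, -0.60 for Igfbp2 and -0.49 for Igfbp3. Igf1 followed Igfbp2 (0.64) more closely than Igfbp3 (0.11). The binding proteins here were picked by their calls in these same arrays, so the signs among them follow in part from that choice. The values are descriptions only, and the 2 arrays that stood apart moved the 6 values among the binding proteins to between -0.74 and 0.78 when left out.

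The genes most like Igfbp3 over the 24 arrays were Elk3 (rho 0.863), Dchs1 (0.849) and Mcam (0.843), and those most like Igfbp2 were Tlr2 (0.845), Mgp (0.837) and Tnfaip8l2 (0.832). Lxn (0.919), Vwa1 (0.919) and Col4a2 (0.911) were most like Igfbp7, and Cabp1 (0.869), Zfp275 (0.847) and Slf2 (0.842) most like Igfbp5. For Igf1, Hrg was closest over the 24 arrays (0.83), and for Igf2r, Itga1 (0.871). Igf2 and Igfbp4 had no gene above 0.757 and 0.726 there. Without the 2 arrays that stood apart, many of these places changed. The 3 genes most like Igfbp2 were then Efhd2 (0.911), Add3 (0.901) and Serpine2 (0.879). Those most like Igfbp5 were C13h1orf116 (0.883), Esyt3 (0.875) and Fam117a (0.866). Elk3 (0.871) and Dchs1 (0.852) stayed for Igfbp3, and Vwa1 (0.951) for Igfbp7, with Ggta1 (0.954) and Htra1 (0.94) new there. Glb1 (0.854) was closest to Igf1 and Il34 (0.869) to Igf2r.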

How the data were processed

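Affymetrix array signals of 24 thyroid samples in 8 groups of 3 were analysed, grouped by the letters in the sample titles. The deposited values are linear intensity per probe set, made with GCOS, per the submitters' processing notes; its version and scaling target are not given in the sources used here, and signal over background is unknown, so the number of arrays limits the precision.

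After removal of 57 array controls, log2(intensity + 16) was computed. Array medians ran from 6.63 to 7.19, a span over the preset 0.5, so quantile normalization was applied. The dimmest probe sets by mean signal (up to the 40th percentile) were left out, leaving 18625 of 31042. limma 3.58.1 in R 4.3.3 fitted 8 group means over 24 arrays (16 residual degrees of freedom), with eBayes (mean-variance trend) and two-sided tests, for 18 comparisons fixed beforehand and 3 between days added after seeing the data. The method was tested on simulated data.

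Of the probe sets, 20826 carried 1 symbol, 436 several and 9780 none; all 10 members kept their symbol by Entrez number in RefSeq GRCr8. Members and gene lists were chosen with earlier results of these data known. The text names the 10 members, called genes of the lists and, for the genes of most similar pattern, those with the highest Spearman correlation. Alternatives changed the scaling, pseudocount, filter, samples fitted, array weights, arrays included and the choice of probe set.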

Additional observations from a re-analysis of the deposited data

How the results depend on the processing

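Of 8 changes of single members called over 21 comparisons, 4 stayed called under all 15 alternatives run for their comparison: Igfbp2, Igfbp3 and Igfbp7 on the diet with perchlorate at day 14 (highest adjusted p 0.00575, 0.00278 and 0.0339) and Igfbp2 between days on that treatment. The other 4 are named above with what ended them; no called change turned its sign. Over 210 values (10 members in 21 comparisons), 92 took the other sign somewhere, none of them called and none above 0.45 in size. The number of members called was 4 for the diet with perchlorate against the control at day 14 and 7 with array quality weights, whose estimation stopped before its tolerance was met. For perchlorate at day 14 it was 1, but 0 with values as deposited, 3 in a fit of only the groups compared, and 2 with weights or without the 2 day 1 arrays that stood apart. For perchlorate added to the diet at day 14 it was 1, but 2 in the fit of only those groups, 3 with weights and 2 without the 2 arrays. The diet gave 0, but 1 with weights at day 14, and 1 over both days with weights or without the 2 arrays. The effect of both together at day 14 less that at day 1 gave 0, but 2 with weights and 1 with a gene's probe sets averaged. Day 14 against day 1 gave 0 with perchlorate, but 1 as deposited and 2 with weights or without the 2 arrays, and 2 on the diet with perchlorate, but 5 with weights or without the 2 arrays. Leaving out single arrays gave 3 to 4 members for the diet with perchlorate at day 14, 1 to 3 for its change between days, and 0 to 1 for perchlorate at day 14, perchlorate added to the diet at day 14, the diet over both days, the diet added to perchlorate at day 1, the diet with perchlorate effect between days, and perchlorate between days. No paired analysis was possible because the groups share no replicate number.

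Probe sets called over the whole array moved too. Perchlorate at day 14 called 665, against 1244 in its own fit, 1762 with weights, 1426 without the 2 arrays and 365 with averaged probe sets. The diet with perchlorate at day 14 called 1649, against 3199, 4371, 3295 and 911 under the same 4. Perchlorate added to the diet at day 14 called 39, against 23 as deposited, 19 with no filter, 338, 961 and 173 in the own fit, with weights and without the 2 arrays. The diet with perchlorate between days called 340, against 187 as deposited, 2693 with weights, 1761 without the 2 arrays and 193 with averaged probe sets. Leaving out single arrays gave 225 to 551, 808 to 1356, 2 to 32 and 8 to 610 in these 4 comparisons. Without normalization the split turned for perchlorate added to the diet (7 higher and 16 lower, against 24 and 15) and for the diet with perchlorate between days (80 and 107, against 248 and 92; 167 and 127 with arrays scaled to a common median). Values as deposited moved the median of all probe sets by over 0.1, for example to 0.132 for the diet at day 14, against -0.022, and to -0.148 for perchlorate added to the diet at day 14, against -0.025.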
